A study of Rattus norvegicus with 16 samples.

Results

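The genes described here encode collagens and the proteins that surround, decorate or crosslink collagen fibrils, measured in whole rat liver. They were taken by symbol: every gene named as a collagen chain (Col, a number, the letter a and a number), plus a list of 20 named matrix genes, of which 19 had a probe set with that symbol alone and Thbs1 was not analysed here. Where a gene had several probe sets, the one with the highest mean over the 16 arrays stood for it. This gave 56 of the 13438 named genes on the array, 37 collagens and 19 others, through 82 probe sets, and 49 of the 56 passed the filter on low signal and were tested. The 7 that did not pass were Col4a4, Col9a1, Col9a3, Col11a2, Col17a1, Postn and Tnc.

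The study asked how molecular hydrogen alters gene expression in the liver with and without dietary stress. Male F344 rats, an inbred strain, were 4 weeks old at the start and were kept for 3 weeks in 4 groups of 4. The normal diet control rats ate CE-2 chow in air, and the normal diet hydrogen rats ate CE-2 chow and received hydrogen-rich water (0.7 mM dissolved hydrogen) in air with 2% hydrogen. The CDAA control rats ate, in air, the diet that the labels call choline-deficient L-amino acid-defined, or CDAA, and the CDAA hydrogen rats ate the CDAA diet with the same hydrogen water and air. Control rats of both diets drank water from which the hydrogen had been allowed to escape. The comparison diet was chow, not a choline-supplemented version of the amino acid diet, so lack of choline and every other difference between the diets cannot be told apart. Signals are log2 values, so a difference of 1 is a doubling, and a level on this scale is not compared between genes because each probe set binds with its own strength.

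Collagens are trimers of chains coded by separate genes. Types I, III, V and XI form the fibrils of the stroma, with type V chains regulating fibril growth, whereas type IV, the laminins and nidogen build the basement membrane sheets under epithelia and around vessels. Decorin, biglycan, lumican and fibromodulin bind fibrils, lysyl oxidases crosslink them, and in liver the stellate cell of the sinusoid wall is the best known source of fibrillar collagen when it is activated by injury, as by a choline-deficient diet.

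The upstream sequences of a few members are shown because these genes rose together on the CDAA diet, and because Col4a1 and Col4a2, whose probe sets did not shift alike, start back to back on opposite strands. They come from RefSeq on the rat GRCr8 build, which held 41 of the 56 members, and are written 5′ to 3′ on the strand of the gene (on the plus strand for the shared region). Capitals mark matches, on either strand, to 4 motifs: CCAAT, the box named after these letters, then the TATA box motif TATAAA, the GC box motif GGGCGG, and the SMAD-type motif CAGAC. On the opposite strand they read as their reverse complements, and none of the marked matches overlaps another. The Col1a2 sequence is the first 110 bases of the 250 before its annotated start, at chr4:33518307-33518416 (plus strand). Of 2 CAGAC matches in the 250 bases of Col1a2, only 1 is in the printed part, and the marked TATAAA lies at −170 to −165 from that start. The sequence of Col5a2 is chr9:55090152-55090401 (minus strand), Nid1 chr17:93069036-93069285 (plus strand) and Lamb1 chr6:53562846-53563095 (plus strand). The 76 bases between the starts of Col4a1 and Col4a2 are chr16:84885521-84885596.
Col1a2: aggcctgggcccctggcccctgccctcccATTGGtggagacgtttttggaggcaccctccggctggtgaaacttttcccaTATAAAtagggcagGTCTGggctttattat
Col5a2: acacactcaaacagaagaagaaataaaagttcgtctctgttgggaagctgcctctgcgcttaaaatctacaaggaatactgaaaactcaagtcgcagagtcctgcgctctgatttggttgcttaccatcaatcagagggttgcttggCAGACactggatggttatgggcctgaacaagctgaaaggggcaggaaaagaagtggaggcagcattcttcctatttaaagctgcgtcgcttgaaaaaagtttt
Nid1: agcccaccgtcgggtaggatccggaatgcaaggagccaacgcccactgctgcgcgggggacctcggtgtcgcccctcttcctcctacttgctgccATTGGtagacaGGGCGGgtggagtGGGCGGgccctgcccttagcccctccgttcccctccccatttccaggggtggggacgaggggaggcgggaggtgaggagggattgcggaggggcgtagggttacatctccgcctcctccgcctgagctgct
Lamb1: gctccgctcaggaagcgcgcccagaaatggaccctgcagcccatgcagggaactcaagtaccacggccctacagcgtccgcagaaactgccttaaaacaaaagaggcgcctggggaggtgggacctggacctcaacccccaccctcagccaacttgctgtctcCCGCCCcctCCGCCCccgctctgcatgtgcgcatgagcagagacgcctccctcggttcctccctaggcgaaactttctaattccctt
Between Col4a1 and Col4a2: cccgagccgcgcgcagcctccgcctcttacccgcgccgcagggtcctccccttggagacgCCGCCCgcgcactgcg

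Over the 250 bases before each start, GGGCGG was present in 56.1% of the 41 members and in 30.5% of all 33469 promoters of the table. It was found in 6 of 6 basement membrane members that were higher in a diet comparison (Col4a1, Col4a2, Lama2, Lamb1, Lamc1 and Nid1) and in 3 of 5 other basement membrane members. Among fibrillar collagens it was found in 1 of 3 that were higher (Col5a1) and in 4 of 4 others. Col3a1, which was higher, and Col1a1 and Col2a1 had no entry. The others of both classes included Col4a4 and Col11a2, which were not tested for a diet difference. The windows of Col4a1 and Col4a2 overlap, so the match in the 76 bases between their starts was counted for both. It was the only match of Col4a1. CCAAT was present in 34.1% of members and 34.0% of all promoters, TATAAA in 14.6% and 12.9%, and CAGAC in 43.9% and 42.9%. The promoters of the table were not limited to genes of the array or to 1 per gene, whereas each member was counted once. The shares thus compare unlike sets, and whether they differ was not tested. The matches are of letters, not known binding sites.

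Depth, in the sense of sequencing, does not apply to arrays; the 4 arrays per group limit the precision. Array medians lay between 4.33 and 4.37. The first principal component of the probe sets that passed the filter (66% of their variance) separated the diets. On it, normal diet control replicate 4 stood apart at −13.4, against −32.3, −35.1 and −32.5 for the other arrays of its group. No hydrogen array of the normal diet lay above −32. In 17 of the 17 members called higher on CDAA in control rats this array had the highest value of its group, against 65% of all 3120 genes called higher. For the label of the tissue, all 8 hepatocyte markers passed the filter, with albumin (Alb) at 13.71 in normal diet controls.

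In control rats, the CDAA diet was accompanied by higher signal of fibril-forming collagens III and V and of Col1a2, of basement membrane genes and of decorin, but not of Col1a1. A member was called when its adjusted p was under 0.05 (limma, Benjamini-Hochberg over all 22634 probe sets tested). Of the 49 members tested, 17 were higher and 4 lower on CDAA, that is 34.7% and 8.16%, where 27.3% of all 11434 tested genes were higher and 13.3% lower. The members' median log2 change was 0.08, against 0.04 over all genes. With hydrogen, 17 members were higher and 7 lower on CDAA, 34.7% and 14.3%, where the background was 32.1% higher and 17.3% lower, and the median was 0.0025 against 0.052. Both shares of higher members were near the background. The liver was measured whole, so a change in the number of a type of cell and in the RNA of each cell cannot be told apart.

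The diet comparisons used separate arrays, although the fit gave them 1 shared estimate of the spread. Of the 17 members higher in each, 16 were shared. Of all genes, 27.3% and 32.1% were higher and 13.3% and 17.3% lower. The share of all genes called in both is not given here, so the overlap is not read as particular to the members. Col6a2 was called only in control rats and Col4a2 only under hydrogen, and neither difference between the comparisons passed its own test (adjusted p = 0.752 and adjusted p = 0.714 for the interaction). Of the lower members, 3 were shared (Col22a1, Loxl2 and Thbs2), which is 3 of 4 in control rats and 3 of 7 under hydrogen. No member was higher in one comparison and lower in the other. Without normal diet control replicate 4, 17 members were higher and 3 lower in control rats, and 17 and 7 under hydrogen.

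**Figure D1:**
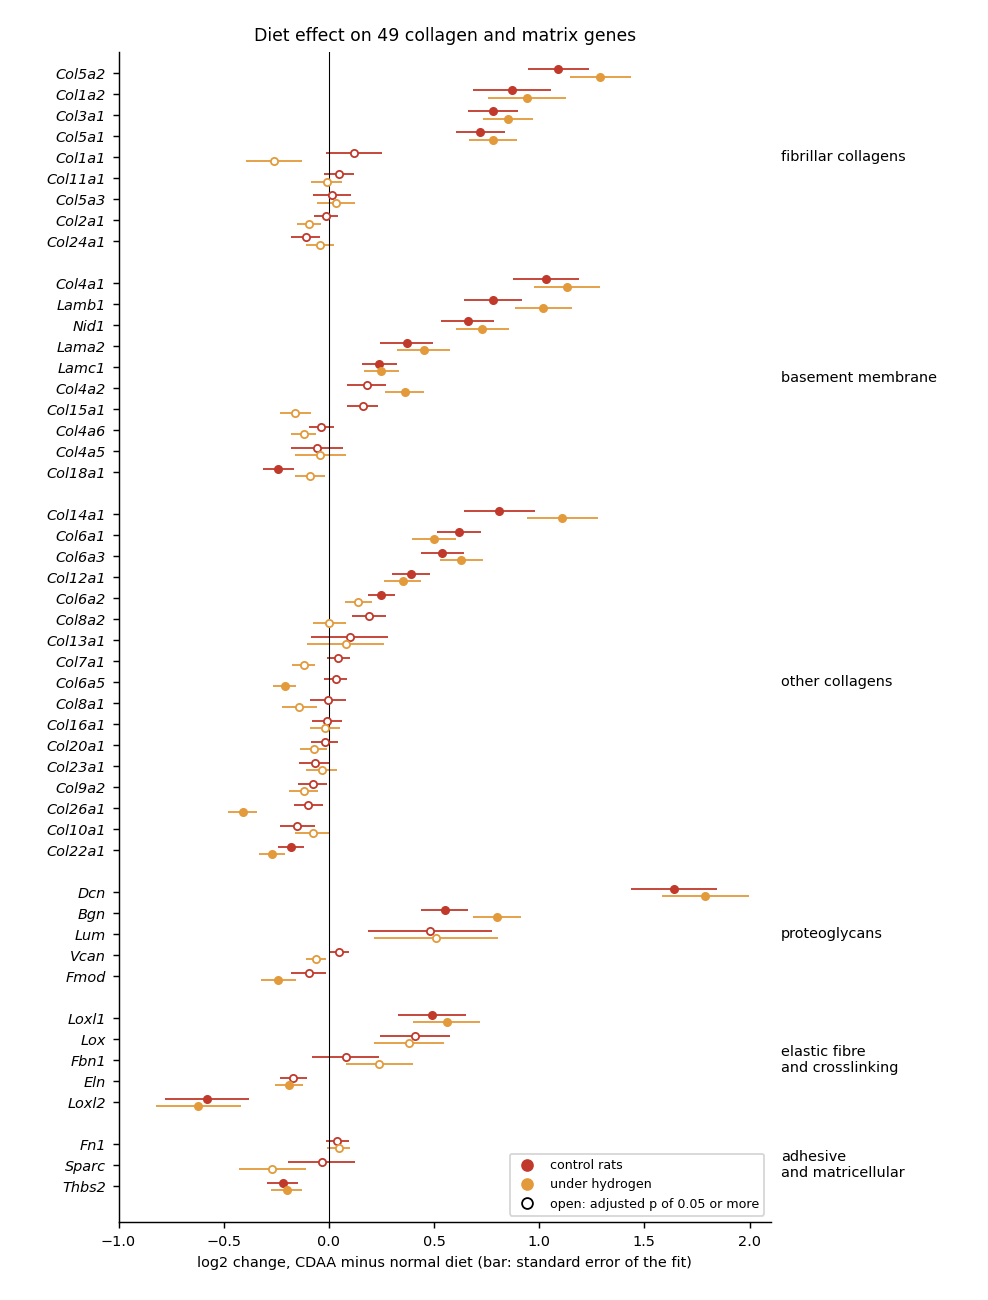
Log2 difference between CDAA and normal diet for the 49 tested members, grouped by class, in control rats and under hydrogen. Lines give the standard error of the fit on each side of the point. Filled points passed an adjusted p of 0.05 and open points did not; decorin (Dcn) lies farthest to the right, at 1.64 and 1.79, and Loxl2 farthest to the left, at −0.58 and −0.62.

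Among fibrillar collagens, Col5a2, Col1a2, Col3a1 and Col5a1 rose in both diet comparisons, and the other 5 tested members (Col1a1, Col2a1, Col5a3, Col11a1 and Col24a1) passed in neither. Except for Col1a1, these lay near the line of 3.68 that the filter used, which limits how small a change they can show. Their means over all arrays were 3.76 (Col2a1), 3.93 (Col5a3), 3.99 (Col11a1) and 3.64 (Col24a1). Col5a2, a chain of type V collagen, read 6.32, 6.05, 6.32 and 6.96 on the normal diet control arrays and 7.66, 7.38, 7.61 and 7.37 on the CDAA control arrays. It was 2.13-fold higher on CDAA (log2 1.09 ± 0.145, SE, n = 4 per group; adjusted p = 4.4e-05). With hydrogen it read 6.42, 6.54, 6.33 and 6.45 on chow and 7.84, 7.78, 7.81 and 7.48 on CDAA, a 2.45-fold difference (log2 1.29 ± 0.145; adjusted p = 5.91e-06). The diets did not overlap in either comparison, and all 8 CDAA arrays lay above all 8 chow arrays.

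Col3a1, the chain of the homotrimeric type III collagen, was next to Col5a2 on chromosome 9 with no other coding gene between them in the RefSeq order. Its signal was 10.25, 10.32, 10.50 and 10.92 in normal diet controls and 11.45, 11.07, 11.39 and 11.21 in CDAA controls, so the groups were separate. It rose 1.72-fold in control rats (log2 0.78 ± 0.118; adjusted p = 0.000119). With hydrogen the values were 10.51, 10.47, 10.43 and 10.56 on chow and 11.37, 11.24, 11.45 and 11.33 on CDAA, a rise of 1.81-fold (adjusted p = 3.54e-05). Col5a1, the partner of Col5a2 in type V trimers, rose 1.64-fold in control rats, from a mean of 6.57 ± 0.181 to 7.29 ± 0.138 (SD, n = 4), and 1.72-fold with hydrogen.

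The 2 genes of type I collagen, the main collagen of scar, were not called alike. Col1a2, which codes for its α2 chain, read 7.77, 7.73, 7.94 and 8.64 in normal diet controls and 9.17, 8.59, 9.16 and 8.64 in CDAA controls. The groups met at 8.64 through normal diet control replicate 4; the rise was 1.83-fold (log2 0.87 ± 0.186; adjusted p = 0.00185), and without that array the log2 rise was 1.08. Under hydrogen the chow arrays lay at 8.07, 8.08, 7.92 and 8.03 and the CDAA arrays at 9.11, 8.83, 9.26 and 8.68, with no overlap and a 1.93-fold rise (adjusted p = 0.000759). Col1a1, coding for the α1 chain present in more copies per trimer, read 5.97, 5.94, 5.77 and 6.28 in normal diet controls and 6.38, 6.10, 6.23 and 5.73 in CDAA controls, which overlap. Its difference was 0.12 (95% interval −0.16 to 0.40; adjusted p = 0.509). Under hydrogen it read 6.10, 6.14, 6.11 and 5.83 on chow and 5.89, 5.90, 5.78 and 5.56 on CDAA, a difference of −0.26 (95% interval −0.54 to 0.016; adjusted p = 0.114). With quantile normalization applied again this difference was −0.41 and passed (adjusted p = 0.0131). The other tested Col1a1 probe set differed by −0.03 and −0.07 and passed in neither comparison.

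**Figure D2:**
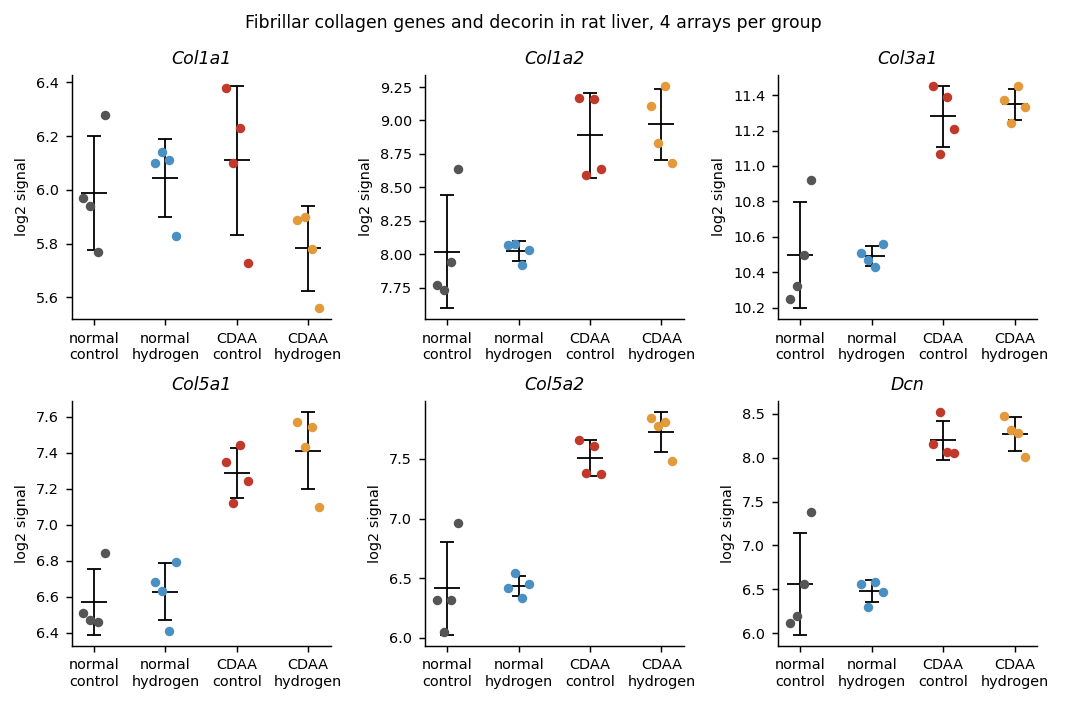
Log2 signal of fibrillar collagen genes on each of the 16 arrays, 4 per group, with the mean as a long line and the SD as bars. The CDAA points lie above the chow points for Col5a2, Col3a1 and Col5a1, meet them for Col1a2 in control rats at 8.64, and mix with them for Col1a1.

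Among basement membrane genes, Col4a1, the laminin genes and the nidogen gene rose, and the multiplexin collagens did not. Of 10 tested, 5 were higher and 1 lower in control rats (50% and 10%, where 27.3% and 13.3% of all genes were, median log2 0.21). Under hydrogen 6 were higher and none lower (60% higher, where 32.1% of all genes were, median 0.30). Col4a1, the α1 chain of the type IV network, read 6.23, 6.01, 6.29 and 6.60 in normal diet controls and 7.57, 6.94, 7.55 and 7.20 in CDAA controls. It rose 2.05-fold (log2 1.03 ± 0.157; adjusted p = 0.000134), the largest change of this class in control rats. Under hydrogen it read 6.69, 6.55, 6.18 and 6.32 on chow and 7.69, 7.51, 7.77 and 7.29 on CDAA, a 2.19-fold rise (adjusted p = 3.96e-05), and the diets did not overlap in either comparison.

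Col4a2, the chain that joins Col4a1 in the common type IV trimer, moved less. Its values were 5.90, 5.75, 5.84 and 5.78 in normal diet controls and 6.03, 5.81, 6.26 and 5.89 in CDAA controls, overlapping, with a difference of 0.18 (95% interval −0.017 to 0.38; adjusted p = 0.147). Under hydrogen it read 5.75, 5.87, 5.82 and 5.87 on chow and 6.33, 6.17, 6.29 and 5.95 on CDAA, with no overlap. That 1.28-fold rise passed (log2 0.36 ± 0.093; adjusted p = 0.00557) but with quantile normalization applied again it was 0.21 and did not (adjusted p = 0.0616). The control rat difference passed with array weights, at 0.23 (adjusted p = 0.0452).

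Lamb1, the β1 chain of laminin, read 4.83, 5.07, 4.91 and 5.42 in normal diet controls against 5.97, 5.50, 6.11 and 5.75 in CDAA controls. The groups were separate and the rise was 1.71-fold (log2 0.78 ± 0.136; adjusted p = 0.000423). With hydrogen the arrays read 5.04, 5.04, 4.67 and 4.84 on chow and 6.06, 5.91, 5.81 and 5.90 on CDAA, a 2.03-fold rise (adjusted p = 2.7e-05). Nid1, or nidogen, which links laminin to type IV collagen, rose 1.59-fold, from 7.98, 8.18, 7.89 and 8.40 to 9.00, 8.40, 8.96 and 8.75, where 1 array of each diet met at 8.40 (adjusted p = 0.000683). Under hydrogen Nid1 rose 1.66-fold, and its 4 CDAA arrays lay close together, between 8.93 and 8.99.

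The other laminin chains changed less and less firmly. Lamc1, the γ1 chain, rose 1.18-fold in control rats (log2 0.24 ± 0.0816; adjusted p = 0.0293) and 1.19-fold under hydrogen (adjusted p = 0.0207). Neither call held with quantile normalization applied again, where the log2 differences were 0.13 and 0.085. The control rat call was lost, too, when only those groups were fitted (adjusted p = 0.0756) and with the mean over its probe sets (0.16, adjusted p = 0.0918). The control rat call was also lost without normal diet control replicate 1 or 3 or CDAA control replicate 1 or 3 (log2 0.17 to 0.24, adjusted p = 0.0608 to adjusted p = 0.105). The call under hydrogen was lost without normal diet hydrogen replicate 1 or 3 or CDAA hydrogen replicate 3 (log2 0.23, adjusted p = 0.0511 to adjusted p = 0.0573).

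Lama2, the laminin α2 chain, rose 1.29-fold in control rats (log2 0.37 ± 0.127; adjusted p = 0.0348) and 1.37-fold under hydrogen (adjusted p = 0.00904). Its call in control rats was lost with quantile normalization applied again (0.32, adjusted p = 0.0565). It was also lost without normal diet control replicate 1, 2 or 3 or CDAA control replicate 1, 3 or 4 (log2 0.31 to 0.39, adjusted p = 0.0509 to adjusted p = 0.102).

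Col18a1 and Col15a1, the multiplexin collagens of basement membrane zones, did not rise. Col18a1 read 9.47, 9.43, 9.38 and 9.39 in normal diet controls and 9.24, 9.18, 9.09 and 9.19 in CDAA controls, without overlap, a 1.18-fold lower signal (log2 −0.24 ± 0.0722; adjusted p = 0.0156). Without CDAA control replicate 3 it was −0.21 (adjusted p = 0.0518), and with the mean over its probe sets −0.14 (adjusted p = 0.128). Under hydrogen the difference was −0.09 (95% interval −0.24 to 0.063) and CDAA hydrogen replicate 2, at 9.53, was the highest of all 16 arrays; without it the difference was −0.17 and passed (adjusted p = 0.0335). Col15a1 differed by 0.16 in control rats (adjusted p = 0.102) and by −0.16 under hydrogen (adjusted p = 0.0902), and under hydrogen passed only with quantile normalization applied again (−0.19, adjusted p = 0.0439). Col4a5 and Col4a6, the X-linked type IV chains, differed by −0.055 and −0.037 in control rats and by −0.04 and −0.12 under hydrogen, and neither passed.

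**Figure D3:**
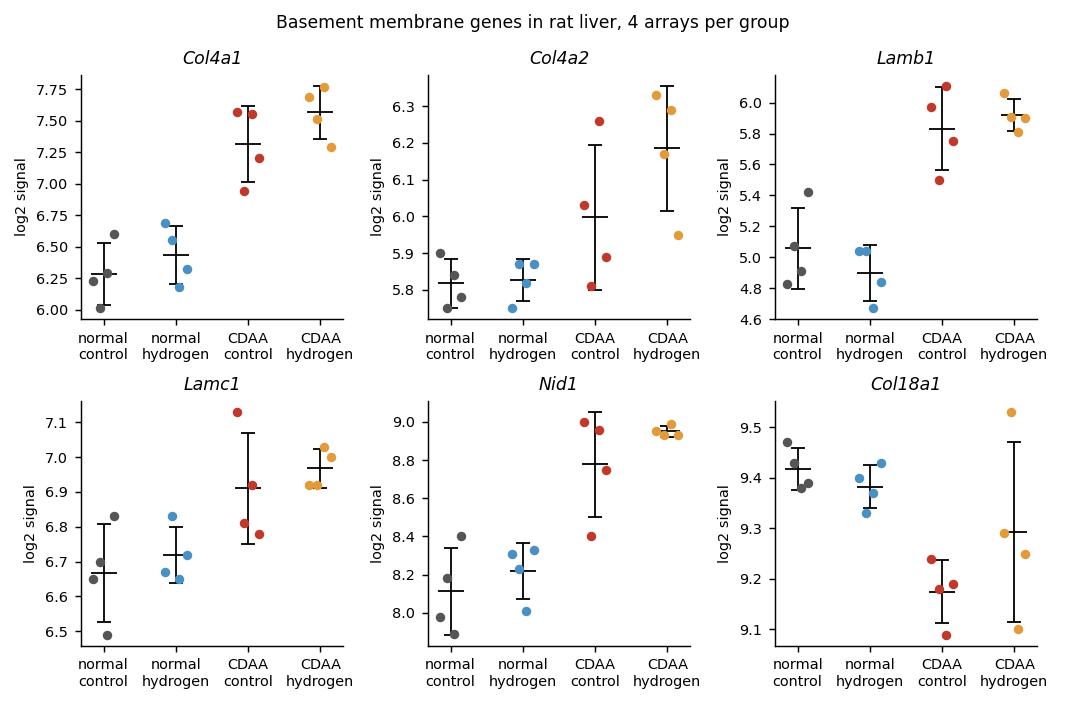
Log2 signal of 6 basement membrane genes on each of the 16 arrays, 4 per group, with means and SD bars, each panel on its own axis. Col4a1 and Lamb1 separate the diets fully, Col4a2 overlaps in control rats, and Col18a1 is lower in the CDAA control arrays, at 9.09 to 9.24, than in normal diet controls, at 9.38 to 9.47.

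Both classes had members that rose and members that did not. In control rats 4 of 9 fibrillar collagens were higher (44.4%, median log2 0.12) and 5 of 10 basement membrane genes (50%, median 0.21). Of all genes, 27.3% were higher in control rats, with a median of 0.04. Under hydrogen 4 of 9 fibrillar collagens were higher (44.4%, median 0.033) and 6 of 10 basement membrane genes (60%, median 0.30). Of all genes, 32.1% were higher under hydrogen, with a median of 0.052. The mean over the 9 fibrillar genes was 5.87 ± 0.152 in normal diet controls, 5.89 ± 0.0289 in normal diet hydrogen, 6.26 ± 0.113 in CDAA controls and 6.28 ± 0.0935 in CDAA hydrogen rats (SD, n = 4). For the 10 basement membrane genes it was 6.23 ± 0.0991, 6.27 ± 0.0789, 6.54 ± 0.131 and 6.62 ± 0.0562. On each array, the fibrillar mean minus the basement membrane mean was −0.43, −0.43, −0.30 and −0.28 in normal diet controls and −0.29, −0.24, −0.29 and −0.30 in CDAA controls. Under hydrogen it was −0.41, −0.39, −0.25 and −0.44 on chow and −0.36, −0.32, −0.25 and −0.41 on CDAA. These overlap in both comparisons. The fibrillar medians and means include Col2a1, Col5a3, Col11a1 and Col24a1, which lay near the filter line. The lowest mean of a tested basement membrane gene was 4.42 (Col4a6). Whether the classes differ in their response was not tested.

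Of the 17 other collagens tested, 5 were higher and 1 lower in control rats (29.4% and 5.88%, where 27.3% and 13.3% of all genes were). Under hydrogen 4 were higher and 3 lower (23.5% and 17.6%, where 32.1% and 17.3% of all genes were). The class as a whole was thus called higher about as often as all genes in control rats and less often under hydrogen. Whether these shares differ was not tested. Col14a1, a fibril-associated collagen, read 6.86, 6.99, 6.88 and 7.50 in normal diet controls and 8.03, 7.40, 8.19 and 7.86 in CDAA controls. It rose 1.76-fold (log2 0.81 ± 0.169; adjusted p = 0.00151), with an overlap through normal diet control replicate 4, and by 0.96 on the log2 scale without it. Under hydrogen it read 7.04, 7.05, 6.72 and 7.13 on chow and 8.22, 7.80, 8.31 and 8.05 on CDAA, separate groups and a 2.16-fold rise (adjusted p = 8.73e-05). Its relative Col12a1 rose 1.31-fold and 1.27-fold.

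The type VI chains, which form beaded filaments around cells, moved to different extents. Col6a3 rose 1.46-fold in control rats (6.49 ± 0.185 to 7.03 ± 0.186, SD, n = 4; adjusted p = 0.000694) and 1.55-fold under hydrogen (adjusted p = 0.000151). Col6a1 rose 1.54-fold and 1.41-fold (adjusted p = 0.000293 and adjusted p = 0.00117). Col6a2, which neighbours Col6a1 on chromosome 20 with no coding gene between them, rose 1.19-fold in control rats (adjusted p = 0.00728); its difference under hydrogen was 0.14 (95% interval −0.00017 to 0.28; adjusted p = 0.0953). Col6a5 differed by 0.032 in control rats and was 1.16-fold lower on CDAA under hydrogen (adjusted p = 0.00576).

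Col22a1, a collagen of tissue junctions, was lower on CDAA in both comparisons. It read 4.30, 4.35, 4.46 and 4.30 in normal diet controls and 4.27, 4.20, 4.07 and 4.14 in CDAA controls, and 4.45, 4.46, 4.34 and 4.34 against 4.03, 4.16, 4.08 and 4.23 under hydrogen. The diets did not overlap, and the differences were −0.18 (adjusted p = 0.0319) and −0.27 (adjusted p = 0.00239). The call in control rats was lost without normal diet control replicate 2 or 3 or CDAA control replicate 3 or 4 (−0.18 to −0.15, adjusted p = 0.0613 to adjusted p = 0.104), when only those groups were fitted (adjusted p = 0.0525) and with quantile normalization applied again (−0.16, adjusted p = 0.0545).

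Col26a1 was 1.33-fold lower on CDAA under hydrogen (log2 −0.41 ± 0.07; adjusted p = 0.00022), at 3.87, 3.88, 3.84 and 3.79 against 4.34, 4.33, 4.24 and 4.12 on chow. In control rats its difference was −0.098 (adjusted p = 0.302). The signals of Col22a1, Col26a1 and Col6a5 lay not far above the line of 3.68 that the filter used. Col7a1, Col8a1, Col8a2, Col9a2, Col10a1, Col13a1, Col16a1, Col20a1, Col23a1 passed in neither diet comparison.

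Decorin showed the largest diet difference of all members. Dcn, the small leucine-rich proteoglycan that binds collagen fibrils and transforming growth factor beta, read 6.12, 6.19, 6.56 and 7.38 in normal diet controls and 8.16, 8.52, 8.06 and 8.05 in CDAA controls. The groups were separate and the rise was 3.11-fold (log2 1.64 ± 0.206; adjusted p = 3.08e-05); without normal diet control replicate 4 it was 1.91 on the log2 scale. Under hydrogen it read 6.56, 6.30, 6.58 and 6.47 on chow and 8.47, 8.32, 8.28 and 8.01 on CDAA, a 3.46-fold rise (adjusted p = 7.28e-06).

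Bgn, or biglycan, read 6.84, 6.88, 7.11 and 7.29 in normal diet controls and 7.76, 7.31, 7.80 and 7.44 in CDAA controls, a 1.46-fold rise without overlap (log2 0.55 ± 0.113; adjusted p = 0.00144). It rose 1.74-fold under hydrogen, from 7.02 ± 0.0424 to 7.82 ± 0.13 (SD, n = 4; adjusted p = 4.78e-05). Lum, or lumican, the neighbour of Dcn on chromosome 7 with no coding gene between them, varied widely among rats of a group, at 4.62, 4.09, 4.67 and 5.04 in normal diet controls and 5.26, 4.53, 5.77 and 4.78 in CDAA controls. Its difference of 0.48 (95% interval −0.15 to 1.11) did not pass (adjusted p = 0.225), nor did the 0.51 under hydrogen (adjusted p = 0.169).

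Fmod, or fibromodulin, was near the filter line; it differed by −0.095 in control rats and was 1.18-fold lower on CDAA under hydrogen (log2 −0.24 ± 0.0835; adjusted p = 0.0282). That call was lost without normal diet hydrogen replicate 1, 2 or 3 or CDAA hydrogen replicate 1 or 3 (−0.24 to −0.18, adjusted p = 0.0509 to adjusted p = 0.0968), when only those groups were fitted (adjusted p = 0.0566) and with quantile normalization applied again (−0.19, adjusted p = 0.0767). Vcan, or versican, differed by 0.048 and −0.062 and passed in neither.

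The crosslinking enzymes moved in opposite directions. Loxl1, a lysyl oxidase relative tied to elastic fibres, rose 1.40-fold in control rats (4.85, 4.89, 5.06 and 5.28 against 5.89, 5.15, 5.85 and 5.14; adjusted p = 0.0259) and 1.47-fold under hydrogen (adjusted p = 0.0104). Its control rat groups overlapped, and the call was lost without normal diet control replicate 1 or 2 or CDAA control replicate 1 or 3 (0.36 to 0.44, adjusted p = 0.0717 to adjusted p = 0.094) and when only those groups were fitted (adjusted p = 0.0701). Lox itself differed by 0.41 (95% interval 0.056 to 0.76; adjusted p = 0.0671) and 0.38 (adjusted p = 0.0711).

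Loxl2, the lysyl oxidase that acts on type IV collagen, read 4.93, 5.04, 4.92 and 5.17 in normal diet controls and 4.54, 4.28, 4.34 and 4.60 in CDAA controls. It was 1.49-fold lower, without overlap (log2 −0.58 ± 0.201; adjusted p = 0.0352). Under hydrogen it was 1.54-fold lower (adjusted p = 0.0196), but the CDAA hydrogen arrays ranged from 3.69 to 5.10 and overlapped chow, at 4.78 to 5.19. The control rat call was lost without any array of its groups except CDAA control replicate 4 (−0.61 to −0.52, adjusted p = 0.0502 to adjusted p = 0.0813). The hydrogen call was lost without normal diet hydrogen replicate 1 or 3 or CDAA hydrogen replicate 2 (−0.58 to −0.39, adjusted p = 0.0512 to adjusted p = 0.0567) and when only those groups were fitted (adjusted p = 0.0631). Eln, or elastin, differed by −0.17 in control rats (adjusted p = 0.0548) and was 1.14-fold lower under hydrogen (log2 −0.19 ± 0.0648; adjusted p = 0.024), whereas its other tested probe set differed by 0.0025 and −0.067 and was not called.

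Adhesive and matricellular genes did not rise through the probe sets used. Fn1, or fibronectin, which hepatocytes secrete into plasma, had a narrow spread, at 11.80 to 11.89 in normal diet controls and 11.86 to 11.93 in CDAA controls. Its differences were 0.04 (95% interval −0.076 to 0.16; adjusted p = 0.604) and 0.047 (adjusted p = 0.496). Thbs2, or thrombospondin 2, was 1.16-fold lower in control rats (4.44, 4.29, 4.48 and 4.23 against 4.16, 4.11, 4.07 and 4.23; adjusted p = 0.0292) and 1.14-fold lower under hydrogen (adjusted p = 0.0398), with overlapping diets in both.

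The Thbs2 calls were not firm. In control rats the call was lost without normal diet control replicate 1 or 3 or CDAA control replicate 2 or 3 (−0.21 to −0.18, adjusted p = 0.0599 to adjusted p = 0.0951). Under hydrogen it was lost without normal diet hydrogen replicate 1, 3 or 4 or CDAA hydrogen replicate 1, 3 or 4 (−0.20 to −0.15, adjusted p = 0.0554 to adjusted p = 0.12). With quantile normalization applied again neither passed (adjusted p = 0.0523 and adjusted p = 0.0838), and centring each array on its median ended the call under hydrogen (adjusted p = 0.0577), as did fitting only those groups (adjusted p = 0.0642).

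Where a gene had several probe sets, these did not always give the same call. Of 21 members with several probe sets, 14 had more than 1 tested, and in 8 of the 14 the calls were the same in control rats and in 8 under hydrogen; none had opposite calls. For Col1a2, Col4a1, Col5a1, Col5a2 and Col14a1 the other probe set rose too, by 0.71, 0.87, 0.59, 0.88 and 0.56 in control rats on the log2 scale. Sparc, a collagen-binding protein of stroma, and Fbn1, or fibrillin 1, the frame of elastic fibres, were not called through the probe set with the higher mean. Sparc differed by −0.035 and −0.27 and Fbn1 by 0.08 and 0.24.

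The other probe sets of Sparc and Fbn1 rose. That of Sparc rose by 0.44 in control rats (adjusted p = 0.00388) and 0.48 under hydrogen (adjusted p = 0.00167), and that of Fbn1 by 0.81 (adjusted p = 0.000514) and 1.09 (adjusted p = 2.89e-05). Through the probe set used, Sparc under hydrogen passed without CDAA hydrogen replicate 1, as lower (−0.41, adjusted p = 0.04), and Fbn1 under hydrogen without CDAA hydrogen replicate 2, as higher (0.40, adjusted p = 0.0336). With the mean over its probe sets, Fbn1 passed as higher in control rats (0.45, adjusted p = 0.0148) and under hydrogen (0.67, adjusted p = 0.000781). In the opposite way, the other probe sets of Nid1, Lamc1 and Col6a3 differed by 0.0025, 0.068 and −0.083 in control rats and were not called. The value given for a gene with several probe sets therefore rests on the choice of probe set, and which of its transcripts each one detects was not tested.

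Several members code for chains of the same protein, so the difference between partners on each array was also followed. The level of such a difference has no meaning by itself, since it compares different probe sets, but its shift between diets shows that the 2 probe sets did not change by the same amount. It does not show that the genes changed unequally, since probe sets of a single gene shifted apart as well, such as those of Nid1 (0.66 and 0.0025), Fbn1 (0.08 and 0.81) and Sparc (−0.035 and 0.44) in control rats. The 6 pairs were chosen after values had been seen, so the shifts are a description without a test. Col1a2 minus Col1a1 was 2.03 ± 0.282 in normal diet controls and 2.78 ± 0.203 in CDAA controls (SD, n = 4), a shift of 0.75, and shifted by 1.21 under hydrogen. Col3a1 minus Col1a1 shifted by 0.66 and 1.12.

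Col4a1 minus Col4a2 shifted by 0.85 in control rats, from 0.26 to 0.82 on the chow arrays to 1.13 to 1.54 on the CDAA arrays, and by 0.77 under hydrogen. These genes share the 76 bases between their starts that are printed above. Col5a2 minus Col5a1 shifted by 0.37 and 0.51, and Lamb1 minus Lamc1 by 0.53 and 0.77. In these 5 pairs the diets did not overlap in either comparison. Col6a3 minus Col6a1 shifted little, by −0.075 in control rats and 0.13 under hydrogen, with overlap in both. With the mean over all tested probe sets of a gene, its shifts were −0.39 and −0.22. With 1 array left out, Col1a2 minus Col1a1 shifted by 0.67 to 0.86 in control rats and Col4a1 minus Col4a2 by 0.78 to 0.97.

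**Figure D4:**
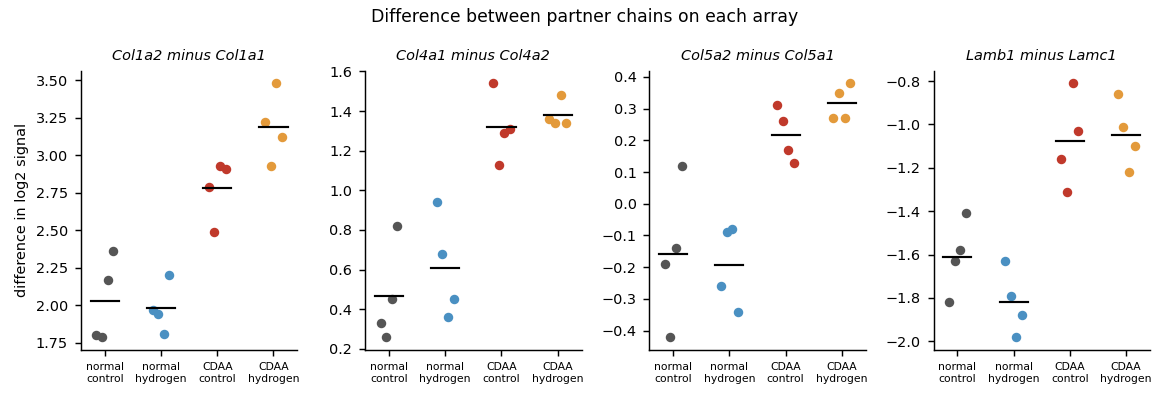
Difference in log2 signal between partner chains on each of the 16 arrays, with the group mean as a line. In all 4 panels the CDAA arrays lie above the chow arrays of the same treatment; for Col1a2 minus Col1a1 the shift is 0.75 in control rats and 1.21 under hydrogen.

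Hydrogen changed no member past the threshold on either diet. On the normal diet 0 of 49 members were called, where 0.00875% of all genes were higher and 0% lower, and the smallest adjusted p was 0.458. On the CDAA diet 0 of 49 were called, where 0.192% of all genes were higher and 0.184% lower, and the smallest adjusted p was 0.202. At an unadjusted p under 0.05, 3 members passed on the normal diet (Lum, Col6a5 and Vcan) and 4 on the CDAA diet (Col1a1, Col15a1, Col26a1 and Col8a2), in limma's test. That is 6.12% and 8.16% of the members, below the 7.11% and 12.6% of all genes. These few were named after their values had been seen.

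The intervals show what size of hydrogen effect these arrays leave room for. On the CDAA diet, hydrogen minus control was 0.08 for Col1a2 (95% interval −0.32 to 0.48), 0.067 for Col3a1 (−0.18 to 0.32), 0.22 for Col5a2 (−0.085 to 0.53) and 0.25 for Col4a1 (−0.084 to 0.58). For Dcn it was 0.072 (−0.36 to 0.51) and for Bgn 0.24 (−0.0028 to 0.48). Col1a1 was the fibrillar gene farthest below 0, at −0.33 (−0.61 to −0.049; adjusted p = 0.343): the CDAA hydrogen arrays read 5.56 to 5.90 and the CDAA controls 5.73 to 6.38, which overlap. The other tested Col1a1 probe set gave −0.015 (−0.25 to 0.22) for this comparison and −0.04 for the interaction described next, so the larger values rest on the probe set used. Col26a1 lay at −0.24 (−0.39 to −0.089; adjusted p = 0.202).

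On the normal diet the fibrillar differences between hydrogen and control were small, from −0.005 for Col3a1 to 0.065 for Col2a1. Lumican varied more. On chow it read 3.67, 4.01, 4.43 and 3.79 with hydrogen and 4.62, 4.09, 4.67 and 5.04 without, a difference of −0.63 (95% interval −1.26 to −0.0034; adjusted p = 0.668). On CDAA it read 4.58, 5.28, 4.16 and 3.93 with hydrogen, against 4.53 to 5.77 without, a difference of −0.60 (−1.22 to 0.029; adjusted p = 0.457). The groups overlapped on both diets.

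**Figure D5:**
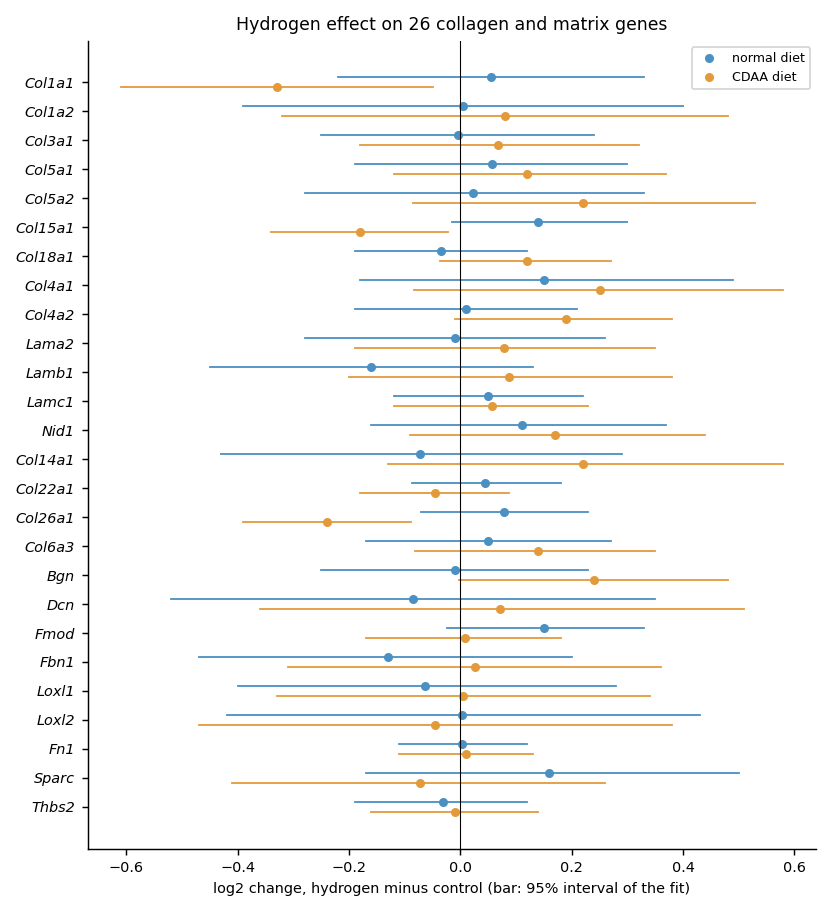
Log2 difference between hydrogen and control for 26 members on each diet, with 95% intervals of the fit. None passed an adjusted p of 0.05; Col1a1 on the CDAA diet lies at −0.33 and Col26a1 at −0.24.

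Whether hydrogen altered the response to the diet was tested by the interaction, the diet difference under hydrogen minus that in control rats. No member passed, where 0% of all genes were higher and 0% lower by this test; 3 members (Col15a1, Col26a1 and Col6a5) had an unadjusted p under 0.05 in limma's test, 6.12% against 9.27% of all genes, and the smallest adjusted p was 0.374. For Col1a1 the interaction was −0.38 (adjusted p = 0.557), for Col14a1 0.30 (adjusted p = 0.743), for Dcn 0.16 (adjusted p = 0.905) and for Col1a2 0.075 (adjusted p = 0.957).

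Genes that process and fold collagen chains rose on CDAA in both comparisons. Of 21, 12 were higher (57.1%, where 27.3% and 32.1% of all genes were) and none lower in each diet comparison, with medians of 0.22 in control rats and 0.26 under hydrogen, against 0.04 and 0.052 over all genes. Pcolce, the enhancer of procollagen C-proteinase, rose by 0.95 and 0.98 on the log2 scale (adjusted p = 4.22e-05 and adjusted p = 1.94e-05). Serpinh1, the collagen chaperone HSP47, rose by 0.64 and 0.57, and the lysyl hydroxylase Plod2 by 0.49 and 0.46.

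Among 14 tested receptors of collagen and matrix, 6 were higher and 2 lower in control rats (42.9% and 14.3%, where 27.3% and 13.3% of all genes were) and 8 and 2 under hydrogen (57.1% and 14.3%, where 32.1% and 17.3% were). The laminin-binding integrin chain Itga6 rose by 1.25 and 1.36, its partner Itgb1 by 0.88 and 1.04 and Itgb3 by 0.80 and 1.07. Itga1, the collagen-binding chain of the liver sinusoid, fell by 0.52 in control rats and by 0.44 under hydrogen. Of 17 genes of transforming growth factor beta signalling, 7 were higher (41.2%) and none lower in control rats and 8 higher (47.1%) and 3 lower (17.6%) under hydrogen, against the same shares of all genes.

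Ltbp1 and Ltbp4, which bind latent transforming growth factor beta in the matrix, rose by 0.99 and 1.44 and by 0.78 and 0.83, and the repressor Tgif1 rose by 0.93 and 0.86. Tgfb1 itself differed by 0.15 (adjusted p = 0.126) and −0.18 (adjusted p = 0.0601). Of 11 profibrotic factors and targets, 5 were higher (45.5%, against 27.3% of all genes) and none lower in control rats and 7 higher (63.6%, against 32.1%) and 2 lower (18.2%, against 17.3%) under hydrogen. Whether any of these lists differs from other genes was not tested. Ccn1 rose by 1.30 and 1.47, Pdgfa by 0.89 and 1.34, Igfbp7 by 0.80 and 0.76 and Ccn2, or connective tissue growth factor, by 0.77 and 0.94. No gene of these 4 lists passed in a hydrogen comparison or the interaction; at an unadjusted p under 0.05 in limma's test there were 3 on chow, 8 on CDAA and 10 in the interaction of the 63 tested, that is 4.76%, 12.7% and 15.9%, against 7.11%, 12.6% and 9.27% of all genes.

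Among markers of cells that can make matrix, most of those of stellate cells were called higher on CDAA. None of those of myofibroblasts or portal fibroblasts was called in control rats. Of 12 stellate cell markers, 8 were higher (66.7%, where 27.3% and 32.1% of all genes were) and none lower in each diet comparison, with a summed linear signal of 1580 to 1880 in normal diet controls, 1620 to 1800 in normal diet hydrogen, 2170 to 2380 in CDAA control and 2410 to 2720 in CDAA hydrogen rats. Reln rose by 0.87 and 1.19, Cygb by 0.55 and 0.79 and desmin (Des) by 0.34 and 0.48. In each comparison 4 of the stellate cell markers were not called, and the lowest differences of the list were −0.16 and −0.15. Ngfr lay at 3.65 in normal diet controls, under the filter line. Of 7 tested markers of contractile myofibroblasts, none was called in control rats (0 also at an unadjusted p under 0.05 in limma's test) and 1 was higher under hydrogen. That was Acta2, smooth muscle actin, with differences of 0.11 (adjusted p = 0.296) and 0.22 (adjusted p = 0.0278), and the summed signals overlapped, at 665 to 703, 624 to 708, 634 to 734 and 671 to 814.

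Markers of other cell types are to be read against the same shares of all genes, 27.3% higher and 13.3% lower in control rats and 32.1% and 17.3% under hydrogen. Of 6 bile duct markers 4 were higher in each comparison, with sums of 619 to 739 and 576 to 659 on chow and 817 to 1350 and 1130 to 1630 on CDAA. Of 8 macrophage markers 4 were higher and 1 lower in control rats and 6 higher under hydrogen, with sums of 2430 to 3220 and 2630 to 2890 on chow and 3660 to 4230 and 3580 to 5830 on CDAA. Of 7 markers of portal fibroblasts and mesothelium none was called in control rats (2 at an unadjusted p under 0.05 in limma's test) and 2 were higher and 2 lower under hydrogen. Their sums were 417 to 474 and 406 to 459 on chow and 339 to 401 and 355 to 505 on CDAA, lower without overlap in control rats only. For sinusoidal endothelium 1 and 2 of 6 were higher, and of 8 hepatocyte markers 1 was higher in control rats and 1 higher and 1 lower under hydrogen. Of 7 lymphocyte markers 1 was higher and 2 lower in each comparison, and of 2 red cell markers 2 and 1 were lower. None of 3 adipocyte markers was called in either comparison, nor passed at an unadjusted p under 0.05 in limma's test. The part of these cells in the differences of the matrix genes was not tested.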

How the data were processed

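Liver RNA of 16 rats was hybridised to RG-230 PM array strips after labelling with a 3′ IVT kit, per the labels' protocols. Each array's file, as deposited by the authors, held log2 signals per probe set. The submitters' processing notes list RMA beside Affymetrix Expression Console; their versions are not given in the sources used here. RMA equalises the arrays' distributions, so a shift of all transcripts would not show. Strip and scan batches are not given in the labels. The labels name separate rats in each group.

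Of 31139 probe sets, 97 array controls were left out, and the 22634 above the 30th percentile of all values (3.68) on at least 4 arrays were tested; 8408 were not. The platform annotation gave 19069 probe sets 1 symbol, 572 several and 11498 none; 18989 matched a current gene by Entrez identifier. Differences were fitted with limma 3.58.1 (R 4.3.3), with 1 mean per group over all 16 arrays and adjusted p-values over all tested probe sets; the fit was tested on simulated data. Fold changes are the antilog of differences in the deposited log2 values. Summed marker signals are sums of the antilog.

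The members and lists were chosen with earlier results of these data known. Values were to be given for members called in a hydrogen against control comparison or the interaction, but no member was. They were given for the 8 largest and 4 lowest called changes of each diet comparison, the 2 highest members of each class and set fibrillar and basement membrane genes. Of other lists, up to 3 called genes with the largest changes were named. Further genes were named after their values were seen. Alternatives were other filters, scalings, spread models, array weights, a replicate block, the mean over a gene's probe sets, only the groups compared, and each array left out.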

Additional observations from a re-analysis of the deposited data

Results flagged for a closer look

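Among the 26 members chosen for description, 104 groups of 4 arrays were checked for an array far from its 3 fellows by Dixon's 95% limit, and 6 had one, where chance gives about 1 in 20, or 5.2. Col5a1 in normal diet control replicate 4 read 6.84, against 6.46 to 6.51 on its fellow arrays. Col5a2 in CDAA hydrogen replicate 4 read 7.48, the others 7.78 to 7.84. For Col1a1, normal diet hydrogen replicate 4 read 5.83 and the others 6.10 to 6.14. Col15a1 in CDAA hydrogen replicate 3 read 4.48, below 4.70 to 4.73. Col26a1 in CDAA control replicate 2 read 4.24, above 4.02 to 4.04. Fn1 in CDAA control replicate 1 read 11.93, where its 3 fellows all read 11.86. No member had an interaction past the threshold.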

How the results depend on the processing

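Counts of higher members moved little: 14 to 20 in control rats and 16 to 18 under hydrogen over the alternatives run. Counts of lower members moved more. In control rats (4 lower) the stricter filter gave 2, and leaving out 1 array gave 0 to 5: 2 without normal diet control replicate 1 or 2, 1 without replicate 3, and 2 and 0 without CDAA control replicate 2 and 3. Under hydrogen (7 lower) the stricter filter gave 2, the fit of only those groups 3, and leaving out 1 array 3 to 7, with 3 without normal diet hydrogen replicate 3 and 4 without CDAA hydrogen replicate 3. The stricter filter tests fewer genes; for the others the cause was not tested. The labels do not say that replicate numbers pair the rats. Only 9 of 24 same-numbered pairs correlated over 0.1 (−0.13 to 0.33), so they were not treated as pairs, but 11 of 16 arrays correlated best with an array of their own number, so pairing is not excluded. With a replicate block, 17 members were higher and 4 lower in control rats, and 17 and 6 under hydrogen, where Thbs2 was no longer called (adjusted p = 0.0617). Of 944 alternatives of the 38 called named results, 879 kept the call, 65 lost it and 0 reversed; of 348 of the 14 not called, 8 gained one. Applying quantile normalization again gave 16 higher and 3 lower in control rats and 16 and 7 under hydrogen, with 22.3% and 16.2%, then 24.4% and 21.4%, of all genes. No hydrogen or interaction call arose in a member under any alternative run. Genes near 3.68 lie near background, which limits how small a change they can show.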
